A study of Mus musculus with 16 samples.

Results

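GABA-A receptors are chloride channels that carry most fast inhibition in the brain. Each channel is a ring of subunits, usually alpha and beta subunits together with a gamma or a delta subunit, and the alpha subunit sets where the receptor sits and which drugs it binds. Receptors with gamma subunits cluster at synapses, whereas those with delta, and many with alpha5, lie outside the synapse and carry a tonic current. Described here are 7 of the 19 subunit genes: the alpha subunits Gabra2, Gabra3, Gabra4 and Gabra5, the beta subunits Gabrb1 and Gabrb2, and the delta subunit Gabrd. They were selected by name, with the levels of Gabra2 in both tissues already known to be higher in the mutant, from 55266 genes with transcripts in the matrices.

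Bulk RNA-seq was available for frontal cortex (FC) and cerebellum (Cere) of adult mice with a null mutation of the X-linked gene Upf3b (Upf3b-KO) and of littermate controls (Ctrl), in 4 groups of 4 libraries. By the study's account both tissues came from 4 Upf3b-KO and 4 Ctrl mice, but the labels do not tie libraries to animals, so the tests between tissues and of the interaction below treat libraries that may share an animal as independent. Upf3b encodes an adaptor of nonsense-mediated RNA decay (NMD), which degrades RNAs that carry, among other features, an exon junction downstream of the stop codon (a dEJ). The mutation is carried by the whole animal, and the strain, the sex and the age in weeks were not given in the sources used here. Gabra2 is known to be expressed at a lower level in C57BL/6J mice, the strain of the reference genome, than in other strains, because of a deletion beside a splice acceptor in 1 of its introns. The part of strain background in the values below was not tested.

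The 15 libraries used for means and tests held 27660078 to 35238677 counts, and the remaining one, Upf3b-KO cerebellum library 1, held 64981 and was left out unless named. Upf3b lay at 14.2 to 15.7 counts per 1000000 counts of the library (CPM) in Ctrl frontal cortex and at 20.9 to 23.6 CPM in Ctrl cerebellum, against 0.2 to 0.9 and 0.6 to 1.0 CPM in the deep Upf3b-KO libraries. The tissue labels were checked against markers in Ctrl: the summed level of 6 cerebellar granule cell genes was 3242 CPM in the cerebellar libraries and 52.3 CPM in the cortical ones. Markers of other cell types differed between genotypes. The summed level of 6 choroid plexus genes was 21.3 CPM in Ctrl and 2172 CPM in Upf3b-KO frontal cortex, and 27.1 and 1383 CPM in cerebellum, with 6 of 6 called higher in each tissue, although Folr1 and Aqp1 passed the cerebellar filter on low counts only through the Upf3b-KO libraries. In frontal cortex 8 of 8 markers of striatal medium spiny neurons were also called higher, with sums of 169 and 789 CPM. In cerebellum 5 of 5 Purkinje cell and 4 of 6 granule cell markers were called lower, and 4 of 4 oligodendrocyte markers were called higher. The sum of 4 astrocyte markers was 3478 CPM in Ctrl and 2713 CPM in Upf3b-KO frontal cortex, and 3895 and 2569.9 CPM in the cerebellar groups. At an adjusted p under 0.05, 4 of these were lower in frontal cortex, whereas 2 were higher and 2 lower in cerebellum. No marker of these lists had a mean of 0 in any group. The part of these differences in the values of the subunits was not tested, and in bulk tissue a change in the number of cells of a type cannot be told apart from a change in RNA per cell.

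Gabra2 lies on the minus strand of chromosome 5 (GRCm39 chr5:71114573-71253662). Of its 6 transcripts in the matrices, 3 made up at least 5% of the gene in a group: the protein-coding Gabra2-203, and Gabra2-204 and Gabra2-201, which are annotated as targets of NMD and carry a dEJ. Gabra2-203 and Gabra2-201 share an internal exon of 221 nt (chr5:71171759-71171979). In Gabra2-204 that exon starts 61 nt further downstream and is 160 nt long, and the reading frame stops shortly after the new splice site. Gabra2-201 skips an upstream exon of 68 nt (chr5:71192073-71192140), which brings another stop codon into frame. The windows of 30 nt that hold the 2 acceptors and the 2 early stops are shown 5′ to 3′ on the transcribed strand, because the early stops define the dEJ forms whose counts are set beside the coding form below. Capitals mark the AG before the exon and the stop codon TGA.
Acceptor of Gabra2-203, chr5:71171965-71171994: taaatttatatttAGgagtatacaatagat
Acceptor of Gabra2-204, chr5:71171904-71171933: gtttaaaatttaaAGgtcctaTGAatatcc
Stop of Gabra2-201, chr5:71171922-71171951: aaaaatggaaagaTGAgcgtttaaaattta

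The first question was how the subunits differ between the tissues in Ctrl mice. The selection named the genotype contrast and not this one, but the Ctrl libraries are shared by both and the members were chosen with earlier results of these data known, so the tests are not fully independent of it. All 7 passed the filter on low counts. Of these, 4 were called lower and 2 higher in cerebellum than in frontal cortex by edgeR's quasi-likelihood test, where a call is a Benjamini-Hochberg adjusted p under 0.01 with a fold change over 2. Over all 17521 genes tested, 25.1% were called in this comparison, 15.9% lower and 9.18% higher.

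Gabra5, a subunit of extrasynaptic receptors best known from hippocampus, showed the widest difference. Its level was 180, 177, 179 and 181 CPM in the Ctrl frontal cortex libraries 1 to 4 and 0.550, 0.764, 0.495 and 0.904 CPM in Ctrl cerebellum. The cerebellar level was 276-fold lower (log2 fold change −8.11, adjusted p 1.39e-27). Those cerebellar values rest on 85 counts in all and have an SD of 28.0% of their mean. No SE is given for this gene where Ctrl cerebellum enters, because the fitted one is smaller than counting error on so few counts.

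Gabra3, the alpha subunit of thalamic reticular and many monoaminergic neurons, was at 90.0 to 96.1 CPM in Ctrl frontal cortex and 16.2 to 17.2 CPM in Ctrl cerebellum (log2 fold change −2.52, SE 0.038, adjusted p 1.81e-22). Gabrb1, a beta subunit, was at 145 to 149 CPM and 48.0 to 48.7 CPM (−1.65, SE 0.026, adjusted p 3.14e-22). Gabra4, which pairs with delta in forebrain, was at 187 to 196 CPM and 75.1 to 78.9 CPM (−1.37, SE 0.025, adjusted p 4.56e-21). In these 3 genes no cerebellar library reached the lowest library of frontal cortex.

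The 2 genes with more RNA in cerebellum were Gabrd and Gabrb2. Gabrd, the delta subunit of the tonic current in cerebellar granule cells, was at 33.1 to 34.0 CPM in Ctrl frontal cortex and 129 to 139 CPM in Ctrl cerebellum (log2 fold change 1.94, SE 0.031, adjusted p 5e-22). Gabrb2, a beta subunit, was at 137 to 146 CPM and 303 to 321 CPM (1.10, SE 0.024, adjusted p 1.14e-19). For both, every cerebellar library lay above every library of frontal cortex.

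Gabra2, the alpha subunit of the axon initial segment, differed least. It was at 69.0, 74.3, 73.2 and 67.5 CPM in Ctrl frontal cortex and at 54.3, 53.0, 55.5 and 55.4 CPM in Ctrl cerebellum. The cerebellum was 1.35-fold lower (log2 fold change −0.44, SE 0.035, adjusted p 4.18e-10), which passed the p threshold but not the fold limit. Among all genes, 76.5% had an adjusted p under 0.05 at any fold here.

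In Upf3b-KO mice the same tissue comparison gave 3 members called lower in cerebellum and 0 called higher (background 22.7% of 18965 genes, 15.7% lower and 6.92% higher). It shares the Upf3b-KO libraries with the genotype contrast that chose the members, so it too is no independent support. Gabra5 was 4.31-fold lower (log2 fold change −2.11, SE 0.035, adjusted p 8.56e-21), Gabra4 3.84-fold lower (−1.94, SE 0.025, adjusted p 1.16e-22) and Gabrb1 2.26-fold lower (−1.17, SE 0.032, adjusted p 2.53e-17). Gabrb2 and Gabrd were still higher in cerebellum, 1.17-fold and 1.53-fold (adjusted p 3.16e-08 and 2.83e-11), below the fold limit. At an unadjusted p under 0.05, 2 members were higher and 5 lower in edgeR, and DESeq2 also called 0 higher and 3 lower.

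**Figure D1:**
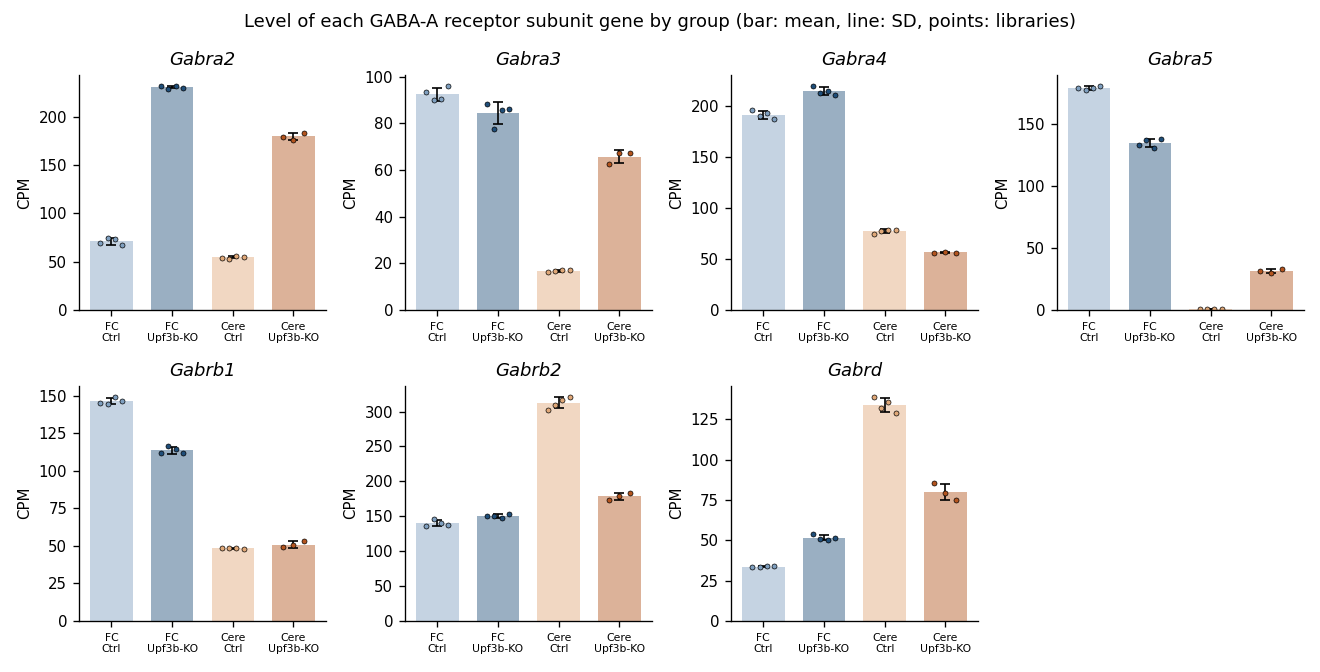
Level of the 7 subunit genes in CPM (linear axis from 0) in the 4 groups, with bars for means, lines for SD and points for libraries (4 a group, 3 in Upf3b-KO cerebellum). The mean of Gabra2 is 71.0 CPM in Ctrl and 231 CPM in Upf3b-KO frontal cortex, and 54.5 and 180 CPM in the cerebellar groups, whereas Gabra3 and Gabra5 lie above Ctrl in Upf3b-KO cerebellum and below it in Upf3b-KO frontal cortex.

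The genotype contrast entered the selection, so the values that follow are a description without tests. In frontal cortex, Gabra2 was at 232, 229, 231 and 230 CPM in the Upf3b-KO libraries, against 67.5 to 74.3 CPM in Ctrl. In cerebellum, it was at 179, 176 and 184 CPM in Upf3b-KO libraries 2 to 4, against 53.0 to 55.5 CPM in Ctrl. The groups did not overlap in either tissue. The means were 231 ± 1.21 CPM (SD, n = 4) against 71.0 ± 3.23 CPM (n = 4) in frontal cortex and 180 ± 3.71 CPM (n = 3) against 54.5 ± 1.17 CPM (n = 4) in cerebellum. The fit placed the cortical log2 fold change at 1.62 (SE 0.026) and the cerebellar one at 1.67 (SE 0.027), which are 3.08-fold and 3.18-fold. The tissue by genotype term, the cerebellar minus the cortical log2 fold change, was 0.04 (SE 0.039) for Gabra2 and −1.35 to 5.97 for the other 6 members. The choroid plexus markers were higher in Upf3b-KO in the same tissues, and their part in the Gabra2 values was not tested.

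The cerebellar library with few counts was not used in the selection. Gabra2 had 14 of its 64981 counts, which is 215 CPM with an exact Clopper-Pearson 95% interval of 118 to 361 CPM. The interval covers counting error only. It contains the 3 other Upf3b-KO libraries and lies above the 4 Ctrl libraries. The remaining 6 members cannot be placed at this depth: in each, the interval contained both the Ctrl and the Upf3b-KO values. Gabra5 had 0 counts there, for which the upper bound of the same interval is 56.8 CPM.

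Gabra3 and Gabra5 lay above Ctrl in Upf3b-KO cerebellum and below Ctrl in Upf3b-KO frontal cortex. In cerebellum, Gabra5 was at 31.4, 30.3 and 33.2 CPM in Upf3b-KO libraries 2 to 4, all above the Ctrl maximum of 0.904 CPM. The fitted log2 fold change was 5.50, on 85 counts in Ctrl. Gabra3 was at 62.8, 67.2 and 67.5 CPM, above the Ctrl maximum of 17.2 CPM, with a log2 fold change of 1.92 (SE 0.044). In frontal cortex, both were lower in Upf3b-KO: Gabra5 at 131 to 138 CPM against 177 to 181 CPM (−0.48, SE 0.022), and Gabra3 at 77.7 to 88.3 CPM against 90.0 to 96.1 CPM (−0.20, SE 0.034). The tissue by genotype term was 5.97 for Gabra5 and 2.11 (SE 0.059) for Gabra3. The mean of Gabra3 was 65.8 CPM in Upf3b-KO cerebellum, 3.91 times the Ctrl mean of that tissue, and 84.6 CPM in Upf3b-KO frontal cortex. Markers of several neuron types also differed in cerebellum. Of 6 interneuron markers, 3 were called higher in Upf3b-KO, with means of 0.971 and 38.2 CPM for Sst, 0.506 and 123 CPM for Lamp5 and 0.0465 and 4.15 CPM for Vip, while the other 3 were lower at an adjusted p under 0.05 and the sum of the list was 2010 CPM in Ctrl and 1555 CPM in Upf3b-KO. Sst was also the gene second closest to Gabra5 over the 15 libraries (r = 0.999). Of 8 striatal markers, 3 were called higher, while the sum of the list was 375 CPM in Ctrl and 340.3 CPM in Upf3b-KO. At an adjusted p under 0.05 and any fold, 5 were higher and 1 lower. The lower one was Ppp1r1b, the most abundant of the list in Ctrl (243 and 127 CPM, adjusted p 1.28e-16). Of 4 markers of Slc17a6 neurons of midbrain and hindbrain, 2 were called higher and the other 2 (Tcf7l2 and Barhl1) were lower at an adjusted p under 0.05. Vip, the 3 striatal markers called higher and 1 of the 2 in the Slc17a6 list, Pou4f1, passed the filter only through the Upf3b-KO libraries, so nothing is read from those calls. The sum of the Slc17a6 list, 35.0 CPM in Ctrl and 175 CPM in Upf3b-KO, was carried mostly by Slc17a6 itself, at 9.36 and 156 CPM. The part of these markers in the Gabra3 and Gabra5 values was not tested.

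Gabrd and Gabrb2, the members with more RNA in cerebellum, were lower there in Upf3b-KO. Gabrd was at 85.3, 79.5 and 75.2 CPM against 129 to 139 CPM in Ctrl (log2 fold change −0.80, SE 0.036), and Gabrb2 at 173, 179 and 183 CPM against 303 to 321 CPM (−0.86, SE 0.024). In frontal cortex, Gabrd was higher, at 50.5 to 53.8 CPM against 33.1 to 34.0 CPM (0.54, SE 0.036). The level of Gabrb2 in frontal cortex was 147 to 153 CPM against 137 to 146 CPM, a log2 fold change of 0.03 (SE 0.024), and with TMM scaling the groups overlapped (144 to 150.2 CPM in Upf3b-KO and 144 to 153 CPM in Ctrl). Granule cells are known to express Gabrd. In Upf3b-KO cerebellum the markers of these cells had a sum of 1690 CPM against 3242 CPM in Ctrl, and the part of that difference in these values was not tested.

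The remaining members had fold changes under 1.5 in both tissues. Gabra4 was at 211 to 220 CPM in Upf3b-KO frontal cortex against 187 to 196 CPM in Ctrl (log2 fold change 0.09, SE 0.020), and at 56.1 to 57.4 CPM against 75.1 to 78.9 CPM in cerebellum (−0.50, SE 0.032). Gabrb1 was at 112 to 116 CPM against 145 to 149 CPM in frontal cortex (−0.44, SE 0.022), and at 49.0 to 53.1 CPM against 48.0 to 48.7 CPM in cerebellum (0.02, SE 0.037), where the groups overlapped with TMM scaling (47.8 to 51.8 and 48.6 to 49.4 CPM). Gabra4 and Gabrb1 lie head to head on chromosome 5 and overlap by 267 bp. Since it was not stated whether counting used the strand, reads of a member that overlaps a gene on the other strand, as Gabra4, Gabra5 and Gabrb1 do, are uncertain.

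By the same thresholds, 1 member was called in frontal cortex (Gabra2, higher) and 3 in cerebellum (Gabra2, Gabra3 and Gabra5, higher). The background was 10.2% of 18218 genes in frontal cortex (9.16% higher, 1.06% lower) and 13.2% of 17785 genes in cerebellum (10.3% higher, 2.86% lower). Because the contrast chose the members, nothing is read from these counts. The 7 had a median log2 fold change of 0.03 (frontal cortex) and 0.02 (cerebellum).

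**Figure D2:**
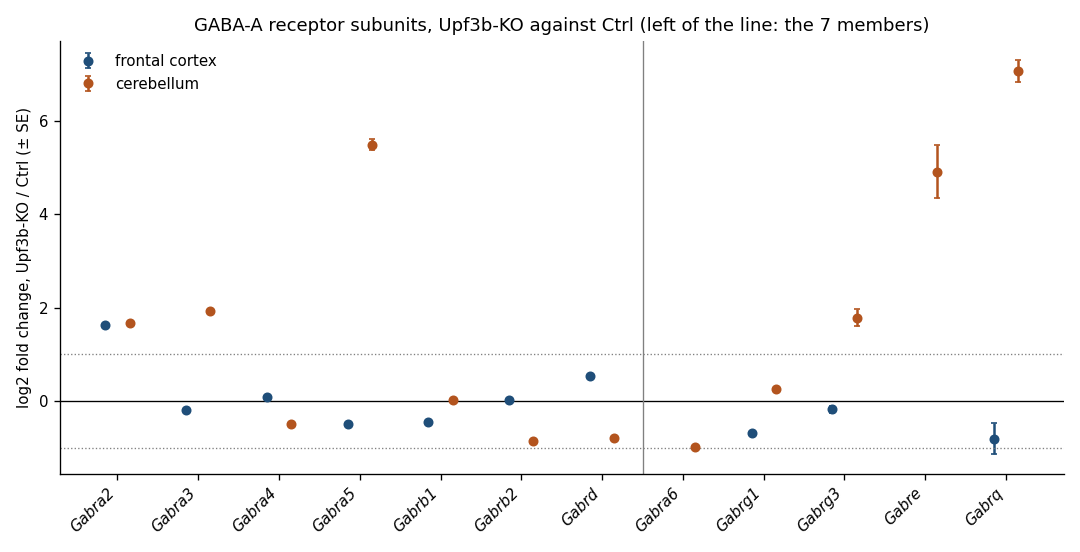
Log2 fold change of Upf3b-KO against Ctrl with its standard error (vertical axis) for the 7 members and, right of the line, 5 other GABA-A subunits, in frontal cortex and cerebellum; dotted lines mark 2-fold. Among the 7 members only Gabra2 lies above 2-fold in both tissues, at 1.62 and 1.67. The standard error of Gabra5 in cerebellum is too small for its few Ctrl counts.

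All of the main Gabra2 transcripts were higher in Upf3b-KO. Gabra2-203, the coding form, was at 24.8, 28.5, 30.8 and 28.2 CPM in Ctrl frontal cortex and at 107, 102, 102 and 102 CPM in Upf3b-KO. In cerebellum it was at 16.4, 16.9, 17.7 and 18.8 CPM in Ctrl and at 69.9, 58.2 and 67.1 CPM in Upf3b-KO libraries 2 to 4. Gabra2-204, with the shortened exon, was at 36.1 to 41.7 CPM and 109 to 112 CPM in frontal cortex, and at 30.2 to 32.3 CPM and 89.4 to 95.9 CPM in cerebellum. Gabra2-201, the exon-skipping form, was at 1.11 to 3.61 CPM and 12.8 to 17.3 CPM in frontal cortex, and at 4.22 to 5.82 CPM and 18.9 to 22.2 CPM in cerebellum. For each form and tissue, no Ctrl library reached the lowest Upf3b-KO library. The fitted log2 fold changes in frontal cortex were 1.82 (SE 0.062) for the coding form, 1.45 (SE 0.053) for Gabra2-204 and 2.51 (SE 0.33) for Gabra2-201.

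The dEJ forms together took 58.3% ± 3.18 of the Gabra2 counts in Ctrl frontal cortex and 54.5% ± 0.968 in Upf3b-KO (SD, n = 4 each). In cerebellum they took 66.5% ± 2.63 (n = 4) and 63.3% ± 3.15 (n = 3). In these summed shares the libraries overlapped in both tissues. The share of the coding form was 36.0% to 42.1% in Ctrl and 44.1% to 46.3% in Upf3b-KO frontal cortex, without overlap. In cerebellum it was 30.1% to 33.9% and 33.0% to 39.0%, with overlap. Per length, the shares of the dEJ forms were 65.5% and 65.6% in frontal cortex and 76.1% and 74.2% in cerebellum. The 2 dEJ forms differed in this. The mean share of Gabra2-204 was 54.9% in Ctrl and 48.1% in Upf3b-KO frontal cortex, and 57.2% and 52.03% in the cerebellar groups. That of Gabra2-201 was 3.42% ± 1.38 and 6.37% ± 0.828 in the cortical groups, and 9.22% ± 1.41 and 11.2% ± 1.20 in the cerebellar groups. RSEM divided the reads: all 3867 exonic bases of Gabra2-204 also lie in Gabra2-203. Only the junctions, the 61 nt that the shortened exon lacks and the ends of the transcripts separate this pair. The matrices held 6 of 31 annotated Gabra2 transcripts.

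**Figure D3:**
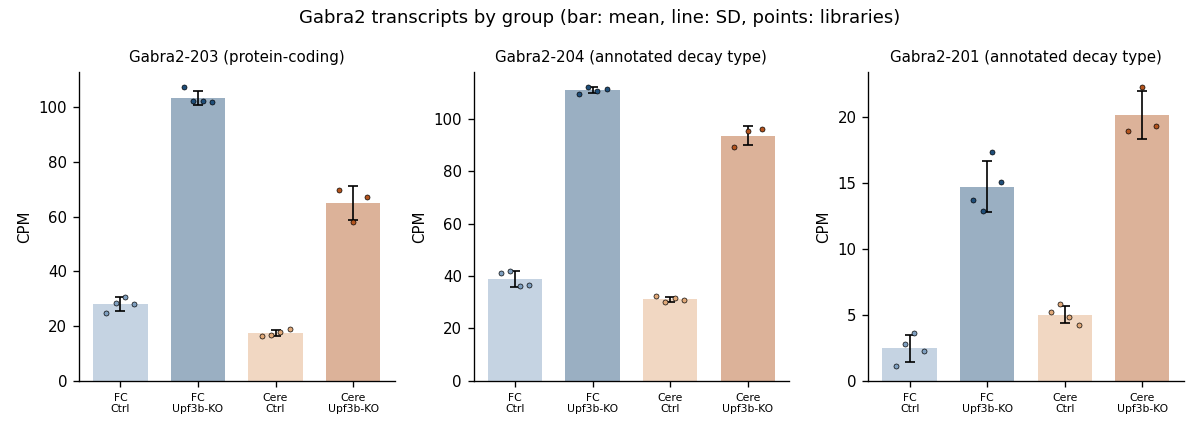
Level in CPM (linear axes from 0) of the coding transcript Gabra2-203 and of the dEJ transcripts Gabra2-204 and Gabra2-201 by group, with bars for means, lines for SD and points for libraries. All 3 are higher in Upf3b-KO in both tissues, with means of 28.1 and 103 CPM for the coding form in the cortical groups and 17.4 and 65.02 CPM in the cerebellar groups.

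Over the 7 genes the matrices held 27 transcripts, of which 13 reached 5% of their gene in some group and 3 carried a dEJ. In Ctrl, 23 passed the filter between tissues, and 5 were called higher and 9 lower in cerebellum (background 15% of 41367 transcripts, 6.07% higher and 8.91% lower). Several of these calls, the 3 Gabra5 forms among them, passed the filter only through the tissue in which they were high. For that reason nothing is read from this count. The main forms Gabra3-201, Gabra4-201, Gabrb1-201, Gabrb2-201 and Gabrd-201 each held over 85% of their gene in every group. Gabrd-203, a form without a defined coding region, was 6.52-fold higher in Ctrl cerebellum than in Ctrl frontal cortex (log2 fold change 2.70, SE 0.19, adjusted p 9.21e-06), and its gene 3.83-fold higher. Gabra5 was divided among 3 coding forms with the same coding length. Gabra2-203 and Gabra2-204 were lower in Ctrl cerebellum (log2 fold change −0.80, SE 0.077, adjusted p 6.58e-05, and −0.42, SE 0.060, adjusted p 0.000623), neither past 2-fold. The fold for Gabra2-201 was 1.90-fold higher, with an adjusted p of 0.0626. In the genotype contrast, 3 of 20 member transcripts were called in frontal cortex, all of Gabra2, and 6 higher and 1 lower of 22 in cerebellum (background 3.22% in frontal cortex, 2.76% higher and 0.461% lower, and 4.75% in cerebellum, 3.45% higher and 1.31% lower). These counts are again a description.

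Levels can be compared between genes only per length, as TPM, in which each transcript's count is divided by its length and a library sums to 1000000. In Ctrl frontal cortex the order was Gabra5 (146 ± 0.923 TPM, SD), Gabra4 (113 ± 2.54), Gabrb1 (68.2 ± 5.63), Gabra3 (61.9 ± 2.75), Gabrb2 (45.6 ± 1.79), Gabrd (41.6 ± 0.570) and Gabra2 (41.2 ± 2.70). The libraries of Gabrb1 and Gabra3, and those of Gabrd and Gabra2, overlapped. In Upf3b-KO frontal cortex, Gabra2 stood first at 130 ± 0.884 TPM, before Gabra4 at 125 ± 1.56 TPM and Gabra5 at 110 ± 2.51 TPM. In Ctrl cerebellum the order was Gabrd (173 ± 5.94 TPM), Gabrb2 (110 ± 3.22), Gabra4 (47.5 ± 1.71), Gabra2 (34.3 ± 0.775), Gabrb1 (30.004 ± 1.93), Gabra3 (11.8 ± 0.658) and Gabra5 (0.548 ± 0.144), with no overlap between neighbours. In Upf3b-KO cerebellum, Gabra2 (108 ± 1.85 TPM) and Gabrd (99.7 ± 6.89) overlapped at the top. The order depends on the length used: per kilobase of each gene's longest transcript, Gabra2 was the third in Upf3b-KO frontal cortex and second in Upf3b-KO cerebellum.

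Genes that act with the members were tested in the genotype contrast as a fixed list of 43: the other GABA-A subunits, the GABA-B receptor, GABA synthesis and transport, and proteins of the inhibitory synapse and of chloride balance. In frontal cortex, 38 passed the filter and edgeR called 0 (of all genes, 9.16% were called higher and 1.06% lower), with 6 higher and 26 lower at an unadjusted p under 0.05. DESeq2 also called 0. At an adjusted p under 0.05 and any fold, 6 were higher and 24 lower, against 28% and 25.3% of all genes. The gamma subunit Gabrg1, at 93.0 CPM in Ctrl and 61.4 CPM in Upf3b-KO, was 1.60-fold lower (log2 fold change −0.68, SE 0.029, adjusted p 2.36e-14). In the same libraries 4 of 4 astrocyte markers were lower at an adjusted p under 0.05, and their part in this value was not tested. Gabrq and Gabrr2, both under 1 CPM on average, had adjusted p of 0.0483 and 0.0442 (log2 fold change −0.81, SE 0.34, and −0.99, SE 0.40), and each lost that threshold in 6 of the 8 fits that left out 1 library.

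In cerebellum, 40 of the 43 passed the filter, and edgeR called 6 higher, which is 6 of 40 against 10.3% of all genes, and 0 lower, against 2.86%. At an unadjusted p under 0.05, 14 were higher and 21 lower, and DESeq2 called 6 higher and 0 lower. At an adjusted p under 0.05 and any fold, 14 were higher and 20 lower, against 33.1% and 31.3% of all genes. The 6 called higher were the GABA transporter gene Slc6a11 (GAT-3), 3 rare subunit genes and 2 genes of the inhibitory synapse. Slc6a11 was at 68.1 to 71.8 CPM in Ctrl and 412 to 420 CPM in Upf3b-KO, 5.79-fold higher (log2 fold change 2.53, SE 0.022, adjusted p 6.86e-24). Plcl1, which binds the beta subunits and their phosphatases, was 2.40-fold higher (1.27, SE 0.048, adjusted p 2.63e-14), and Insyn2a, a gephyrin partner, 4.27-fold higher (2.09, SE 0.19, adjusted p 1.69e-08).

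The 3 rare subunit genes were at low levels in Ctrl cerebellum. Gabrq, the theta subunit of hypothalamic and monoaminergic neurons, was at 0.0289 to 0.0882 CPM in Ctrl, 8 counts in all, and at 8.03, 9.76 and 10.3 CPM in Upf3b-KO (adjusted p 2.56e-15). Gabre, the epsilon subunit of similar neurons, was at 0 to 0.145 CPM in Ctrl, 6 counts in all, and at 1.32 to 2.04 CPM in Upf3b-KO (adjusted p 3.4e-07). Both passed the filter only through the Upf3b-KO libraries, in which they were high, so their p-values and their place among the 6 calls are a description. Gabrg3, a gamma subunit, was at 1.01 to 1.59 CPM and 3.97 to 4.68 CPM (log2 fold change 1.79, SE 0.18, adjusted p 5.48e-08). Gabrq and Gabre are neighbours of Gabra3 on the X chromosome. The part of the neuron markers given above in these values was not tested either.

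Gabra6, the alpha subunit of cerebellar granule cells, was lower, short of the fold limit. It was at 740 to 756 CPM in Ctrl and 384 to 393 CPM in Upf3b-KO cerebellum (log2 fold change −0.99, SE 0.015, adjusted p 3.53e-20). Gabrg1 was higher (log2 fold change 0.27, SE 0.041, adjusted p 1.1e-05). Gabra6 was at or under 0.155 CPM in every library of frontal cortex.

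The tissue by genotype interaction was called for 5 of 40 pathway genes tested, all with a larger log2 fold change in cerebellum, and for 0 in the other direction (background 9.4% of 19831 genes, 6.36% higher and 3.04% lower). At an unadjusted p under 0.05, 16 were higher and 14 lower, and DESeq2 called 5 higher and 0 lower. They were Gabrq (7.87, adjusted p 2.1e-14), Slc6a11 (2.95, adjusted p 1.04e-27), Insyn2a (2.21, adjusted p 5.38e-10), Gabrg3 (1.95, adjusted p 1.47e-09) and Plcl1 (1.05, adjusted p 2.4e-13).

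Gabra2 stands in a cluster of subunit genes on chromosome 5 with Gabrg1, Gabra4 and Gabrb1. Another 21 protein-coding genes start within 2 Mb of its start. In the genotype contrast 13 of them were tested in frontal cortex, 2 of these being members, and 3 were called, all higher (10.2% of all genes). In cerebellum 16 were tested and 4 called, all higher (13.2% of all genes). Atp10d, a phospholipid flippase gene 1107 kb away, was 3.28-fold higher in Upf3b-KO frontal cortex (log2 fold change 1.71, SE 0.16, adjusted p 1.03e-08) and 2.90-fold higher in cerebellum (1.54, SE 0.20, adjusted p 1.48e-06). Slc10a4, a transporter gene of cholinergic and monoaminergic neurons 1911 kb away, was 7.36-fold higher in frontal cortex (2.88, SE 0.22, adjusted p 2.92e-10) and was at 0.0362 to 0.118 CPM in Ctrl and 18.4 to 18.6 CPM in Upf3b-KO cerebellum (adjusted p 1.33e-17). The third in frontal cortex was Cox7b2 (1.12, SE 0.29, adjusted p 0.00244), and the other 2 in cerebellum were Zar1 and Slc10a4-ps, both under 1 CPM. Slc10a4, Zar1 and Slc10a4-ps passed the cerebellar filter only through the Upf3b-KO libraries, so 3 of the 4 cerebellar calls are a description and nothing is read from their count. The nearest tested genes on either side, Gabrg1 and Cox7b2, did not share the pattern of Gabra2: Gabrg1 was lower in frontal cortex, and Cox7b2 had a log2 fold change of −0.74 (SE 0.23, adjusted p 0.00986) in cerebellum.

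**Figure D4:**
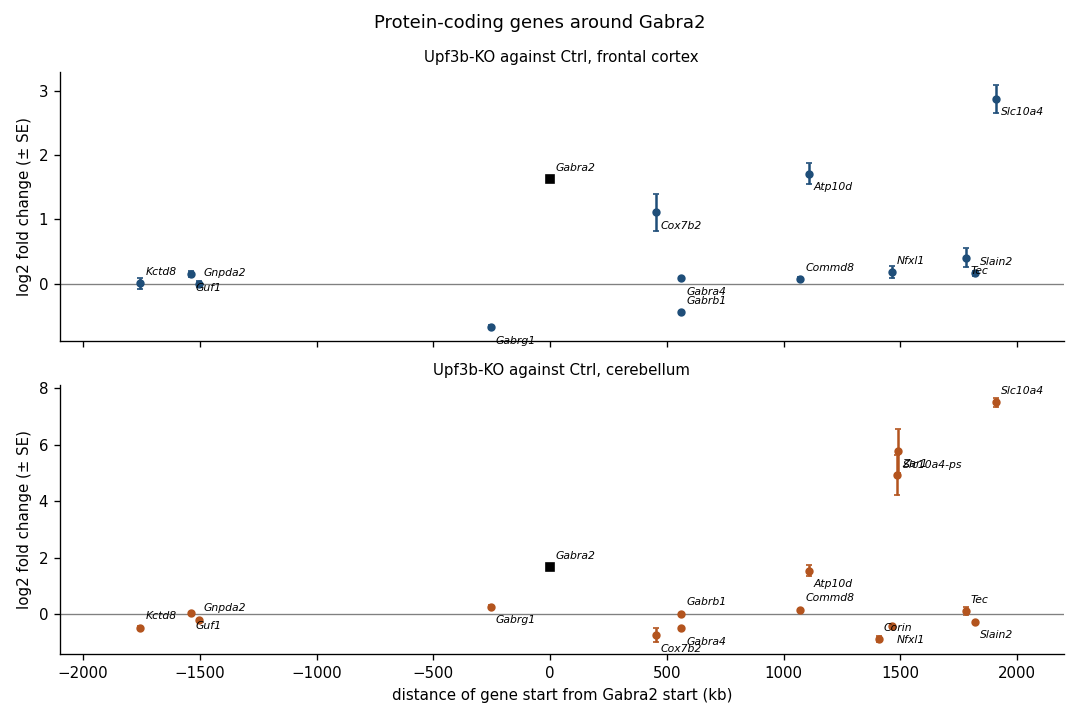
Log2 fold change of Upf3b-KO against Ctrl with its standard error (vertical axes, not on 1 scale) for tested protein-coding genes against the distance of their start from that of Gabra2 in kb, with frontal cortex above and cerebellum below; the black square is Gabra2. Gabrg1, Gabra4 and Gabrb1, the subunit genes beside Gabra2, lie at −0.68, 0.09 and −0.44 in frontal cortex and at 0.27, −0.50 and 0.02 in cerebellum, against 1.62 and 1.67 for Gabra2. Standard errors can be too small for genes with few counts in a group.

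The genes whose level followed Gabra2 most closely over the 15 libraries were sought among 10330 genes whose average reached 10 CPM, by Pearson's r of log2(CPM + 1). The closest were F5 (r = 0.997), Prlr (0.996), Folr1 (0.996), Ttr (0.995) and Enpp2 (0.995). Ttr, Folr1 and Enpp2 are known from choroid plexus. Ttr was at 7.94 and 1848 CPM in Ctrl and Upf3b-KO frontal cortex and at 2.05 and 1209 CPM in cerebellum, a far larger difference than that of Gabra2. The libraries fall into 4 groups, so these values describe the order of group means and not a relation within groups.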

How the data were processed

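RNA-seq of 16 mouse libraries was analysed, 4 each of Ctrl and Upf3b-KO frontal cortex and cerebellum, grouped by their labels. The authors aligned reads to GRCm39 with STAR 2.5.2b, estimated expected counts of each Ensembl transcript with RSEM and deposited them unscaled. The authors depleted ribosomal RNA and used a SMART-Seq library kit. Reads shared by transcripts were divided by that model. Of 142435 transcripts, 141102 matched GENCODE vM39, holding 99.3% to 99.4% of each library, and were summed per gene.

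Counts were rounded and fitted in R 4.3.3 with edgeR 4.0.16 (with limma 3.58.1), using filterByExpr (minimum count 10, total 15), TMM scaling, the quasi-likelihood F test and Benjamini-Hochberg adjustment over all genes. Genes with a fold change above 2 and an adjusted p below 0.01 were called. The standard error was the log2 fold change divided by the square root of F. It can be too small where a group holds few counts. CPM are counts per 1000000 of the library total, and TPM also divide by transcript length. A floor is 3 counts of the total. The fits were tested on simulated counts. Alternatives were DESeq2 1.42.0, median-of-ratios scaling, no filter, other thresholds, the replicate number as a block, all 15 deep libraries in one fit, the shallow library included, and leaving out each library.

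The members and gene lists were chosen with earlier results of these data known. Named genes are the members, their transcripts at 5% of a gene, other subunits that passed the filter (some are not reported here), pathway genes called, neighbours within 2 Mb, and the 5 genes most like Gabra2. Spread between replicates was 2.08 to 3.97 times counting noise (chi-square ratio, 21 pairs). The labels do not tie a replicate number to an animal, so p-values measure the spread between these libraries.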

Additional observations from a re-analysis of the deposited data

Results flagged for a closer look

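In the shallow library of Upf3b-KO cerebellum, which was left out of the main comparisons, Gabra2 stood at 215 CPM on 14 counts, above the 53.0 to 55.5 CPM of the 4 Ctrl libraries.

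In 6 members every Upf3b-KO library lay on one side of every Ctrl library in frontal cortex and on the opposite side in cerebellum, in CPM. Their cerebellar minus cortical log2 fold changes were 5.97 for Gabra5, 2.11 for Gabra3, 0.45 for Gabrb1, −0.60 for Gabra4, −0.89 for Gabrb2 and −1.35 for Gabrd. The difference was not tested for these members, because the contrast chose them. The share of all genes whose libraries separate in this way was not computed, so nothing is read from the count of 6. At an adjusted p under 0.05 and any fold, 28% of all genes were higher and 25.3% lower in frontal cortex. In cerebellum 33.1% were higher and 31.3% lower. For Gabrb1 in cerebellum, the fitted log2 fold change ran from −0.01 to 0.04 when single libraries were left out, so its sign there depends on single libraries. With TMM scaling the libraries no longer separated for Gabrb1 in cerebellum (48.6 to 49.4 CPM in Ctrl, 47.8 to 51.8 CPM in Upf3b-KO) or for Gabrb2 in frontal cortex (144 to 153 and 144 to 150.2 CPM).

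Among the pathway genes, the interaction test gave a larger log2 fold change in cerebellum for Gabrq (7.87), Slc6a11 (2.95), Insyn2a (2.21), Gabrg3 (1.95) and Plcl1 (1.05).

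Of 48 groups of 4 libraries examined for a value far from the rest, 1 had one: Gabrb1 in Ctrl cerebellum library 4, at 48.0 CPM against 48.6 to 48.7 CPM in the others. The gap is small in absolute terms, and chance alone marks about 1 group in 20.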

How the results depend on the processing

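The calls for the members between tissues kept their number under DESeq2, median-of-ratios scaling, no filter, the replicate block and all 15 deep libraries in one fit: 6 in Ctrl and 3 in Upf3b-KO. Without a fold limit, at an adjusted p under 0.05, 7 members passed in Upf3b-KO. Of all 18965 genes, 6623 were higher and 6849 lower there. At that threshold the pathway counts were 30 of 38 in frontal cortex, 34 of 40 in cerebellum and 29 of 40 for the interaction. Of all genes, 28% were higher and 25.3% lower in frontal cortex, and 33.1% and 31.3% in cerebellum. For the interaction 4798 of 19831 genes were higher and 4728 lower. At an adjusted p under 0.01 and over 1.5-fold the pathway counts were 2, 14 and 10. The share of all genes under that rule was not computed, so nothing is read from them. With the shallow library included, 4 pathway genes were called in cerebellum in place of 6. With single libraries left out, the Gabra2 log2 fold change ran from 1.60 to 1.64 (frontal cortex) and from 1.65 to 1.69 (cerebellum). Such fits left 6 and 3 members, 11 to 15 member transcripts (14 in the full fit), and 0, 6 and 5 pathway genes.

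The correlation of same-numbered deviations ran from −0.07 to 0.10, which is low but cannot show whether the numbers pair animals. In the cerebellar genotype contrast, replicates 2, 3 and 4 each correlated best with their own number (r = 0.03, 0.06 and 0.10). In the other comparisons most did not. With the replicate number as a block, the log2 fold change of Gabra2 was 1.62 and 1.67, the counts of members were 6 and 3, of pathway genes 0, 6 and 5, and of member transcripts 11. Gabrq and Gabrr2 in frontal cortex each lost an adjusted p under 0.05 in 6 of 8 fits without 1 library, with log2 fold changes of −0.97 to −0.59 and −1.35 to −0.68. No called result reversed. TMM scaling moved 12 mean CPM levels of members by more than 1 SD, and 64981 counts limit the shallow library to levels above 46.2 CPM.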
